A study of Homo sapiens with 9 samples.

Results

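The 77 genes described here encode the protein components of the cytosolic ribosome. They were taken from a table of 27421 genes as the protein-coding rows whose name starts with RPL or RPS followed by a ribosomal protein number or one of the stalk names RPLP0, RPLP1 and RPLP2, together with RPSA. The rule uses names only and no measured value. It gave 46 genes of the large (60S) subunit and 31 genes of the small (40S) subunit, spread over 21 chromosomes, of which chromosome 19 held 12.

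RNA was measured in 9 samples of Huh7, an established human hepatocellular carcinoma line, in 3 groups of 3: shZMAT2-2 and shZMAT2-1, which are named in the labels for 2 hairpins against ZMAT2, and a control. The ZMAT2 protein has a zinc finger and belongs to the spliceosome, and the submitters asked whether this cancer depends on it through splicing. All 3 groups share the Huh7 background. The labels do not say what the control cells carry, how long the hairpins were expressed or whether a group is 1 clone. Nor do they call the replicates separate cultures, so each p-value reflects only the spread among these libraries, which may be technical. Values are FPKM, which count fragments over a gene and divide them by its length and by the library's depth.

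Each cytosolic ribosome holds 1 copy of nearly every one of these proteins, and the cell makes them in matched amounts, with surplus protein degraded. The small subunit reads the mRNA, the large subunit joins the amino acids, and a stalk of RPLP0, RPLP1 and RPLP2 on the large subunit recruits the elongation factors. Vertebrate ribosomal protein mRNAs start with a run of pyrimidines, the 5′ terminal oligopyrimidine (TOP) motif, through which the kinase mTORC1 and the RNA-binding protein LARP1 control their translation and stability. Growing tumour cells spend a large part of their poly(A) RNA on this family.

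The pyrimidine runs at the start sites of 8 members that the results below turn on are shown here, from RefSeq (GRCh38.p14). Each window covers 20 bases before the annotated start and 25 from it. Capitals mark the longest run of C and T at or within 5 bases of the start. Where a gene has several annotated starts, the one with the longest run is shown. RPS12 and RPLP1 had the largest estimates between the hairpins, RPL41 was among the most abundant, RPS14 had one of the lowest values in the second control library, and RPS26, RPL26, RPS29 and RPL27 had comparatively high values there.
RPS12 (chr6:132814549-132814593, plus strand): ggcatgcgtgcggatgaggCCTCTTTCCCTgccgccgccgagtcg
RPLP1 (chr15:69452798-69452842, plus strand): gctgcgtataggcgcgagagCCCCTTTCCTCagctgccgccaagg
RPL41 (chr12:56116613-56116657, plus strand): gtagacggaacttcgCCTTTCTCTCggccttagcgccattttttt
RPS14 (chr5:150449715-150449759, minus strand): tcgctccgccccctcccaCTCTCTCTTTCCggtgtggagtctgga
RPS26 (chr12:56041898-56041942, plus strand): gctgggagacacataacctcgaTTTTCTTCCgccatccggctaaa
RPL26 (chr17:8383169-8383213, minus strand): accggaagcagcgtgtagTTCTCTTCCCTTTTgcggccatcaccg
RPS29 (chr14:49598686-49598730, minus strand): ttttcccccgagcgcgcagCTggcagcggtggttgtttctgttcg
RPL27 (chr17:42998399-42998443, plus strand): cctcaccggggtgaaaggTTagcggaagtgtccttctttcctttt

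Of the 77 members, 62 were matched in the RefSeq promoter table. A run of at least 8 bases of only C and T, on the strand of the gene, lay at or within 5 bases of an annotated start in 51 of these 62 (82.3%). The same held for 2089 of 13274 other protein-coding genes of the table (15.7%). Counted by promoter rather than by gene, such a run lay in 54 of 77 promoters of the members (70.1%) and in 4042 of all 35116 promoters in the RefSeq table (11.5%). The longest such run had a median of 11.5 bases in the members, with a range of 2 to 25, against a median of 4 bases in the other genes. Runs of 11, 11, 10, 12, 9 and 14 bases stand at or near the starts of RPS12, RPLP1, RPL41, RPS14, RPS26 and RPL26. RPS29 and RPL27 have 2 bases each at the annotated start. The RPL27 window printed above ends in a longer run of C and T, which starts more than 5 bases after the annotated start and was not counted. A run in this window is a description of letters; whether each mRNA starts there in Huh7 cells was not measured.

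The levels of the members, averaged over the 9 libraries, ran from 0.583 FPKM for RPS10 to 675 FPKM for RPS2. Of the 77 members, 40 averaged at least 100 FPKM, 31 averaged 10 to 100 FPKM and 6 averaged less than 10 FPKM, and the median was 116 FPKM. The most abundant by this measure were RPS2 (chromosome 16, 675 FPKM), which sits at the mRNA entry side of the small subunit, RPL41 (chromosome 12, 650 FPKM), a very short basic peptide, RPL7A (chromosome 9, 546 FPKM) and RPS12 (chromosome 6, 546 FPKM). These 4 cannot be ordered, since each varied several-fold between libraries: RPL41 exceeded RPS2 in 4 of 9 libraries, control replicates 1 and 3 and shZMAT2-1 replicates 1 and 3, and RPS12 exceeded both in shZMAT2-1 replicates 1 and 3. The listed mRNA levels spanned 1157-fold from the lowest to the highest member, RPS10 and RPS2, which both share exon bases with another gene on the same strand. Members without such sharing ran from 19.6 FPKM for RPS28 to 650 FPKM for RPL41.

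**Figure D1:**
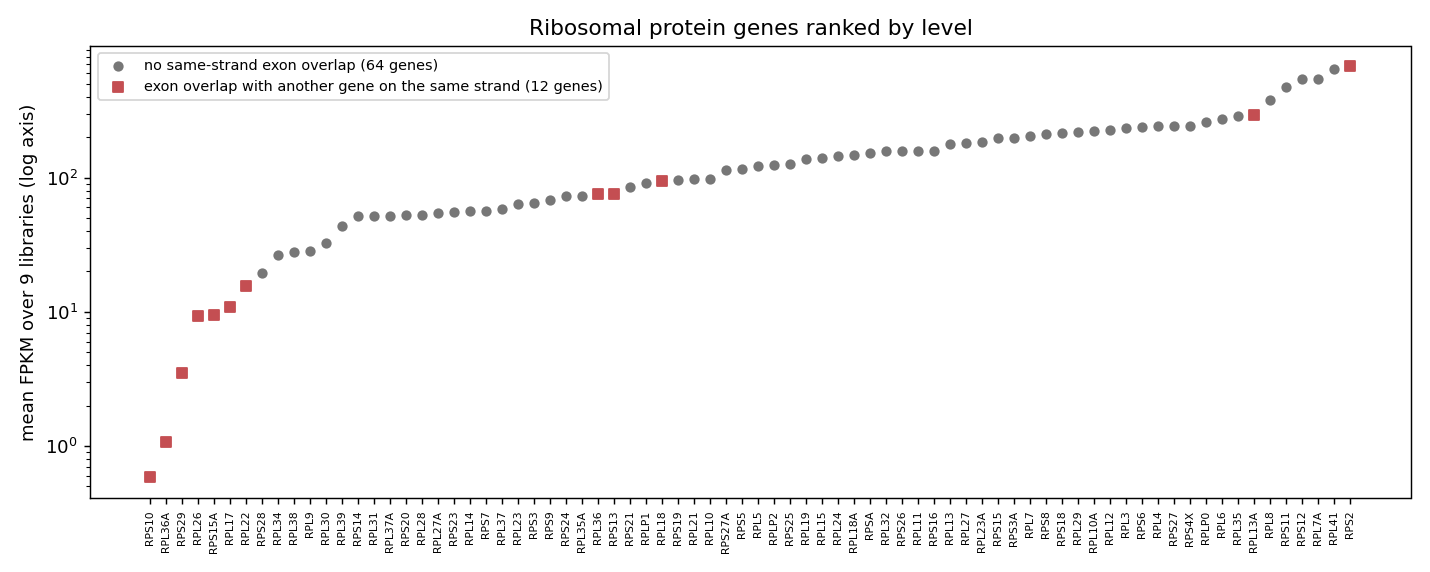
Mean FPKM over 9 libraries for 76 of the 77 ribosomal protein genes, in rank order, on a log axis. Squares mark genes whose exons overlap an exon of another gene on the same strand in GENCODE 29, and the lowest genes up to RPL22 at 15.6 FPKM are all squares.

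The lowest 8 members included RPS10 (0.583 FPKM), RPL36A (1.07), RPS29 (3.49), RPL26 (9.34), RPS15A (9.51), RPL17 (10.9) and RPL22 (15.6), as means over the 9 libraries. In the GENCODE 29 annotation all 8 share exon bases with another gene on the same strand, and of the other 69 members 5 do (RPL36, RPS13, RPL18, RPL13A and RPS2). For RPS10 the other gene is the readthrough gene RPS10-NUDT3, with 39.4% of the exon bases of RPS10. For RPL17 it is RPL17-C18orf32, with 24.8%, for RPL26 it is AC135178.2, with 14.3%, and for RPL36A it is RPL36A-HNRNPH2, with 8.40%. The share was smaller for RPL22 (4.93%), RPS29 (4.09%) and RPS15A (3.26%). Among the 5 members of higher level it was 17.6% for RPL36, 14.5% for RPS2, 6.30% for RPL18, 3.55% for RPL13A and 2.65% for RPS13. The sources used here do not give how fragments in shared bases were assigned, so the levels of these 13 genes are uncertain, and the part of the overlap in the low values was not tested. RPS10 is a core protein of the small subunit, and its listed FPKM is a level of mRNA as counted, not of the protein.

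Other sequence properties were set beside the levels. Ribosomal protein genes have many processed pseudogenes, and GENCODE 29 names 1132 for 76 of the 77 members, with a median of 10 per member and the highest number, 91, for RPL23A. Across the 77 members, which share the same libraries, the Spearman correlation with mean FPKM was -0.36 for the share of exon bases overlapped, -0.016 for the number of named pseudogenes, 0.32 for the GC content of the transcripts and -0.46 for the number of exon bases. Exon bases enter the FPKM as a divisor if the authors counted over all exons, so the last value is not independent of the unit. A median of 3.36% of the 100-base stretches of a member's transcripts also occur in transcripts of other genes, so reads of these members may be split among copies.

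The libraries held 18430000 to 23740000 fragments, a depth recovered from the values, and 3 fragments on a 1 kb transcript were worth 0.126 to 0.163 FPKM. ZMAT2 averaged 21.1 ± 0.922 FPKM in shZMAT2-2, 13.7 ± 1.30 FPKM in shZMAT2-1 and 36.5 ± 3.32 FPKM in the control libraries (SD, n = 3 each), and all 6 hairpin libraries lay below all 3 controls. Liver markers of the line were high in every library (ALB at least 1333 FPKM, AFP at least 815 FPKM). Of 13 fibroblast, leukocyte and endothelial markers in the table, 9 stayed under 1 FPKM in all 9 libraries. The other 4 were LYZ at 43.6 to 131 FPKM, CD14 at 2.47 to 8.74 FPKM, COL1A2 at 0.558 to 2.31 FPKM and PECAM1 at 0.661 to 1.70 FPKM, while PTPRC, DCN and CDH5 were at or near 0.

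Mitochondrially encoded genes, 13 in all, took a share of the fragments that did not follow the groups. In replicates 1, 2 and 3 this share was 27.0%, 14.5% and 16.6% for shZMAT2-2, 8.25%, 16.4% and 7.70% for shZMAT2-1, and 7.86%, 43.2% and 8.28% for the control. The second control library and, less so, the second shZMAT2-1 library therefore stood apart from the other 2 of their group.

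The ribosomal protein genes moved with the same libraries. Together they held 4.47%, 4.64% and 5.47% of the FPKM of all nuclear genes in shZMAT2-2, 8.15%, 4.78% and 7.70% in shZMAT2-1, and 7.40%, 4.77% and 7.57% in the control. These shares leave the mitochondrial genes out of the total. The 5 libraries with a mitochondrial share of at least 14.5% had ribosomal protein shares of at most 5.47%, and the other 4 had shares of at least 7.40%. The median level of the 77 members was 60.3, 66.4 and 97.9 FPKM in shZMAT2-2, 182, 73.5 and 169 FPKM in shZMAT2-1, and 149, 53.9 and 150 FPKM in the control. What part the mitochondrial share, or anything that moves with it, had in these levels was not tested.

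**Figure D2:**
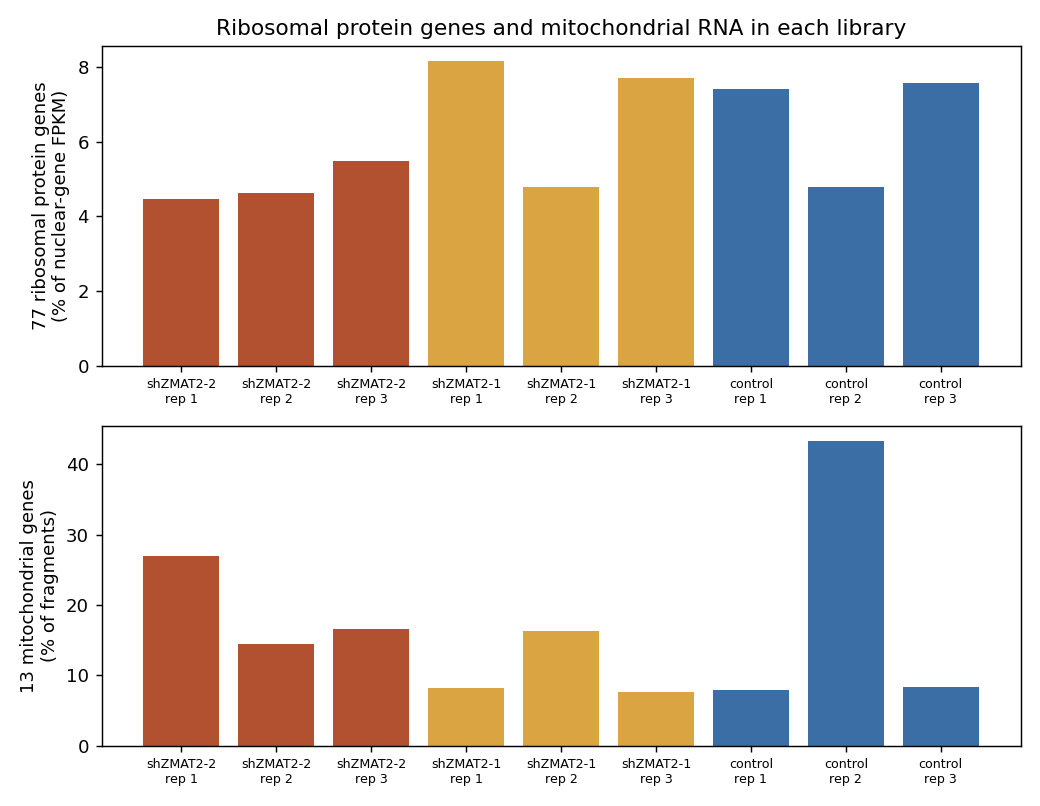
Top, FPKM of the 77 ribosomal protein genes as a percentage of the FPKM of all nuclear genes; bottom, the percentage of fragments from 13 mitochondrially encoded genes, with 1 bar per library. The 3 shZMAT2-2 libraries, shZMAT2-1 replicate 2 and control replicate 2 have ribosomal protein shares of 4.47% to 5.47% and mitochondrial shares of 14.5% to 43.2%.

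Member by member the order of the libraries was nearly the same. In 70 of the 77 members (90.9%) the 4 highest libraries were shZMAT2-1 replicates 1 and 3 and control replicates 1 and 3, as they were in 3434 of the 11245 tested genes (30.5%). The highest of all was shZMAT2-1 replicate 1 in 64 members. The lowest was control replicate 2 in 64 members, while 70.8% of all tested genes were also lowest there. The second shZMAT2-1 library lay within the range of the 3 shZMAT2-2 libraries in 72 of 77 members (93.5%), against 67.8% of tested genes. Both other shZMAT2-1 libraries lay above both other control libraries in 51 of 77 members (66.2%) and below both in 5. Among all tested genes 35.3% lay above and 37.5% below.

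RPS12, a protein of the beak of the small subunit, shows the pattern in an abundant member. Its level was 168, 223 and 281 FPKM in shZMAT2-2, 1158, 237 and 1075 FPKM in shZMAT2-1, and 834, 147 and 794 FPKM in the control. The 5 low libraries spanned 147 to 281 FPKM and the other 4 spanned 794 to 1158 FPKM, so each hairpin overlapped with the control.

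The stalk proteins varied in the same way. RPLP1, which pairs with RPLP2 on the stalk, had 29.4, 36.3 and 48.2 FPKM in shZMAT2-2, 203, 39.8 and 183 FPKM in shZMAT2-1, and 133, 23.3 and 128 FPKM in the control. RPLP2 had 57.1, 66.4 and 97.9 FPKM in shZMAT2-2, 242, 73.5 and 217 FPKM in shZMAT2-1, and 162, 40.2 and 172 FPKM in the control. RPLP0, the stalk base to which both bind, had 110, 159 and 197 FPKM in shZMAT2-2, 433, 166 and 402 FPKM in shZMAT2-1, and 388, 86.6 and 396 FPKM in the control. All 3 were lowest in control replicate 2 and highest in shZMAT2-1 replicate 1, and the groups overlapped.

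RPL5 and RPL11 form, with the 5S RNA, a particle that also binds the ubiquitin ligase MDM2. RPL5 had 73.2, 98.0 and 113 FPKM in shZMAT2-2, 171, 101 and 162 FPKM in shZMAT2-1, and 163, 55.7 and 165 FPKM in the control. RPL11 had 99.7, 123 and 145 FPKM in shZMAT2-2, 240, 125 and 219 FPKM in shZMAT2-1, and 200, 71.9 and 212 FPKM in the control. Both spanned a narrower range than the acidic stalk proteins, with the same libraries low. RPS6, the small-subunit substrate of the S6 kinases, had 151, 179 and 221 FPKM in shZMAT2-2, 339, 191 and 324 FPKM in shZMAT2-1, and 310, 110 and 334 FPKM in the control.

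Several small-subunit proteins lay at the low end in the second control library. RPS14, at the platform of the small subunit, had 15.4, 24.5 and 29.2 FPKM in shZMAT2-2, 99.5, 25.1 and 92.3 FPKM in shZMAT2-1, and 82.2, 12.8 and 82.6 FPKM in the control. RPS9, near the mRNA entry region, had 23.8, 36.1 and 48.8 FPKM in shZMAT2-2, 131, 38.5 and 120 FPKM in shZMAT2-1, and 98.5, 16.1 and 100.3 FPKM in the control. RPS28, a short protein at the mRNA exit, had 7.33, 8.21 and 10.2 FPKM in shZMAT2-2, 43.4, 8.55 and 40.7 FPKM in shZMAT2-1, and 25.7, 6.17 and 25.9 FPKM in the control. In all 3 genes the second shZMAT2-1 library lay among the shZMAT2-2 libraries.

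**Figure D3:**
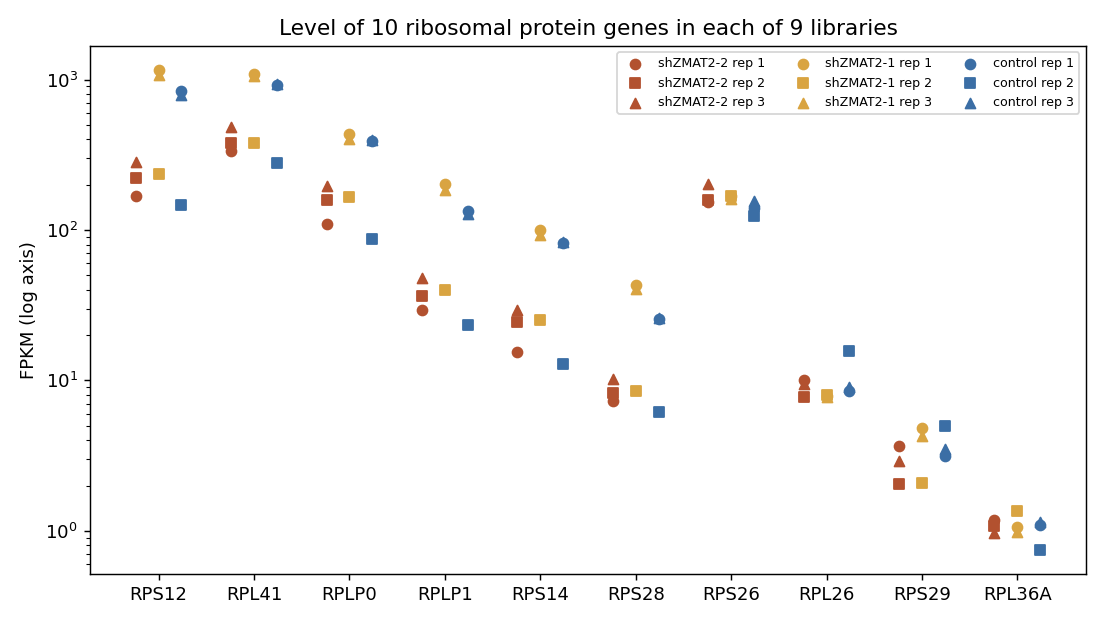
FPKM of 10 ribosomal protein genes in each of the 9 libraries on a log axis, with shZMAT2-2, shZMAT2-1 and control from left to right and a marker shape for each replicate. In RPS12 the 5 low libraries span 147 to 281 FPKM and the other 4 span 794 to 1158 FPKM, whereas RPS26 stays between 125 and 201 FPKM.

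A few members departed from this order in at least 1 group. RPL26, a large-subunit protein near the exit tunnel, had 10.1, 7.77 and 9.40 FPKM in shZMAT2-2, 7.87, 8.06 and 7.77 FPKM in shZMAT2-1, and 8.49, 15.6 and 8.99 FPKM in the control. Its second control library was the highest of all 9, where most members were lowest. RPS26, which lies at the mRNA exit, had 152, 158 and 201 FPKM in shZMAT2-2, 167, 168 and 161 FPKM in shZMAT2-1, and 140, 125 and 157 FPKM in the control. RPS29 had 3.67, 2.04 and 2.89 FPKM in shZMAT2-2, 4.84, 2.08 and 4.29 FPKM in shZMAT2-1, and 3.12, 4.97 and 3.51 FPKM in the control, so it followed the other members in shZMAT2-1 and departed from them in the control. RPL36A stayed at 1.18, 1.08 and 0.963 FPKM in shZMAT2-2, 1.07, 1.35 and 0.976 FPKM in shZMAT2-1, and 1.09, 0.750 and 1.15 FPKM in the control. RPL26, RPS29 and RPL36A are among the 8 lowest members with shared exon bases, and RPS26 is not. RPS20 and RPL28 were also among the 7 members whose 4 highest libraries were a different set.

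The second control library measured this spread within a group. Its level was a median of 0.341 times the mean of control replicates 1 and 3 over the 77 members, with a range of 0.0954 for RPS10 to 1.79 for RPL26. It was below 1 in 75 members and below 0.5 in 60. Over the 11245 tested genes the median was 0.566 and 39.6% were below 0.5. In the second shZMAT2-1 library the ratio to replicates 1 and 3 had a median of 0.489 over the members, from 0.203 for RPS28 to 1.33 for RPL36A, against 0.934 over the tested genes, and 40 members were below 0.5 against 8.23% of tested genes. The members therefore differed between replicates of 1 group by more than the typical gene did.

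The ratios of both second replicates ordered the members alike, with a Spearman correlation of 0.59 across 77 members. These members share their libraries and their depth, so this is a description. Low ratios in both were found in RPLP1 (0.206 in shZMAT2-1, 0.178 in the control), RPS12 (0.212 in shZMAT2-1, 0.181 in the control) and RPS14 (0.262 in shZMAT2-1, 0.155 in the control). RPS2 (0.657 in shZMAT2-1, 0.336 in the control) lay near the middle for the control library. Neither ratio tracked the level of the member closely (Spearman 0.11 in shZMAT2-1 and -0.05 in the control, across 77 members). The length of the pyrimidine run gave -0.06 in shZMAT2-1 and -0.11 in the control across 62 members. RPS29 and RPL27, which have 2 pyrimidines at the annotated start, had control ratios of 1.50 and 0.739, while RPL26 with 14 had 1.79. RPL27 also has a longer, uncounted run further downstream.

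**Figure D4:**
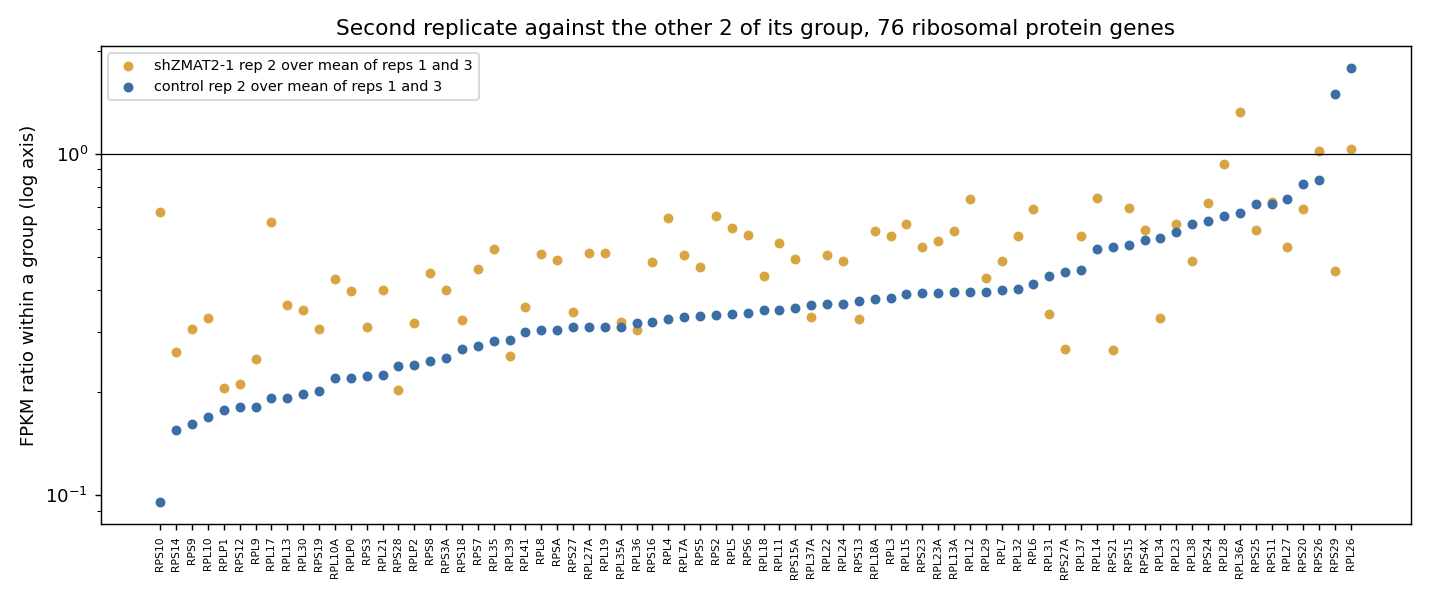
For 76 of the 77 ribosomal protein genes, the FPKM of replicate 2 divided by the mean of replicates 1 and 3, within shZMAT2-1 and within the control, on a log axis and sorted by the control ratio. In the control RPS29 (1.50) and RPL26 (1.79) lie above 1 and the other genes shown lie below it.

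The comparison of shZMAT2-2 with the control asked whether the second hairpin changed these genes. No member passed the threshold (limma on log2(FPKM + 1), Benjamini-Hochberg adjusted p under 0.05 over 11245 genes), against 0.587% of all tested genes. Of the 76 members tested (RPS10 missed the filter on low values), 72 had a lower and 4 a higher estimate in shZMAT2-2, with a median log2 fold change of -0.41. Among all tested genes 58.4% had a higher estimate, and their median was 0.05. No member had an unadjusted p under 0.05, against 787 of all tested genes. The median standard error of a member was 0.45, and the smallest adjusted p of a member was 0.912. Single control libraries moved the median by over 1.5 times: it was -0.20 without control replicate 1, -0.91 without control replicate 2 and -0.16 without control replicate 3.

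Within this comparison the smallest unadjusted p-values belonged to RPL27, RPL34, RPS27A and RPL31. RPL27 had 134, 120 and 157 FPKM in shZMAT2-2 and 216, 159 and 215 FPKM in the control, with a log2 fold change of -0.51. RPL34 had 17.2, 14.7 and 18.1 FPKM in shZMAT2-2 and 32.7, 18.9 and 33.7 FPKM in the control, with a log2 fold change of -0.70. In both genes the groups did not overlap, and they were the only 2 of the 77 members (2.60%) for which this held, against 13.4% of tested genes. RPS27A, made as a fusion with ubiquitin, had 60.3, 53.9 and 73.9 FPKM in shZMAT2-2 and 154, 67.7 and 145 FPKM in the control, with a log2 fold change of -0.88. RPL31 had 28.1, 28.1 and 36.5 FPKM in shZMAT2-2 and 68.6, 30.5 and 70.9 FPKM in the control, with a log2 fold change of -0.77. The groups overlapped in RPS27A and RPL31 through control replicate 2. Estimates for RPS12, RPLP1 and RPL26 were -1.07, -0.97 and -0.21.

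With shZMAT2-1 against the control the estimates pointed the other way. No member passed, against 0.0800% of all tested genes. A higher estimate was found in 72 of 76 members and a lower one in 4, while 72.9% of all tested genes had a higher estimate. The members' median log2 fold change was 0.30, beside 0.16 for all tested genes. The split of the members depended on the scaling. With TPM it was 76 higher and 1 lower with a median of 0.52, and 87.5% of all tested genes were higher. Under median-of-ratios scaling it was 55 higher and 21 lower with a median of 0.11, and 51.5% of all tested genes were higher. Under scaling on nuclear genes it was 47 higher and 29 lower with a median of 0.06, and 44.8% of all tested genes were higher. The members' median was -0.19 without control replicate 2 alone and 0.16 without replicate 2 of both groups. The labels do not pair libraries by number. Between libraries of the same number the members' median FPKM was higher in shZMAT2-1 than in the control (182 against 149, 73.5 against 53.9 and 169 against 150). That order rests on the matching by number, since 73.5 in shZMAT2-1 replicate 2 lay below 149 and 150 in control replicates 1 and 3. The median log2 fold change was 0.54 without control replicate 1, 0.57 without control replicate 3, and 0.10, 0.66 and 0.17 without shZMAT2-1 replicates 1, 2 and 3. No member had an unadjusted p under 0.05, against 648 of all tested genes, and the smallest adjusted p of a member was 0.805.

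The smallest unadjusted p-values in this comparison included those of RPL26, RPL22 and RPS26. RPL26 had a log2 fold change of -0.39 ± 0.23 (SE), with all 3 shZMAT2-1 libraries below all 3 controls. RPS26 had 0.24 ± 0.21 (SE), with all 3 shZMAT2-1 libraries above all 3 controls. These 2 of 77 members (2.60%) were those whose groups did not overlap, against 10.9% of tested genes. RPL22, a large-subunit protein that also has a paralog, had 24.5, 12.3 and 24.3 FPKM in shZMAT2-1 and 18.0, 6.57 and 18.2 FPKM in the control, with a log2 fold change of 0.55. Estimates for RPS12 and RPLP1 were 0.53 and 0.62, with -0.29 and -0.19 without control replicate 2 alone, and 0.46 and 0.56 without replicate 2 of both groups.

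The hairpins were also set against each other, since both were made to lower the same gene. In shZMAT2-2 against shZMAT2-1 no member passed, against 0% of all tested genes, and 74 of 76 members had a lower and 2 a higher estimate in shZMAT2-2. Among all tested genes 38.9% had a higher estimate. The members' median log2 fold change was -0.67, while the median over all tested genes was -0.09. Without shZMAT2-1 replicate 2 the members' median was -1.01. By the unadjusted limma test 2 members were under 0.05, as were 465 of all tested genes. They were RPS21, a small-subunit protein, with -1.13 (limma adjusted p = 0.657), and RPS28, with -1.45 (limma adjusted p = 0.657). RPS21 had 47.4, 38.7 and 59.4 FPKM in shZMAT2-2 and 171, 43.5 and 157 FPKM in shZMAT2-1, so the groups overlapped through shZMAT2-1 replicate 2. RPS12 (-1.60) and RPLP1 (-1.59) had the largest estimates, with a standard error of 0.74 and 0.73. The groups did not overlap in RPS10 and RPL17, which are 2 of 77 members (2.60%), against 14.9% of tested genes. The 3 comparisons share libraries, so their estimates are not independent.

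**Figure D5:**
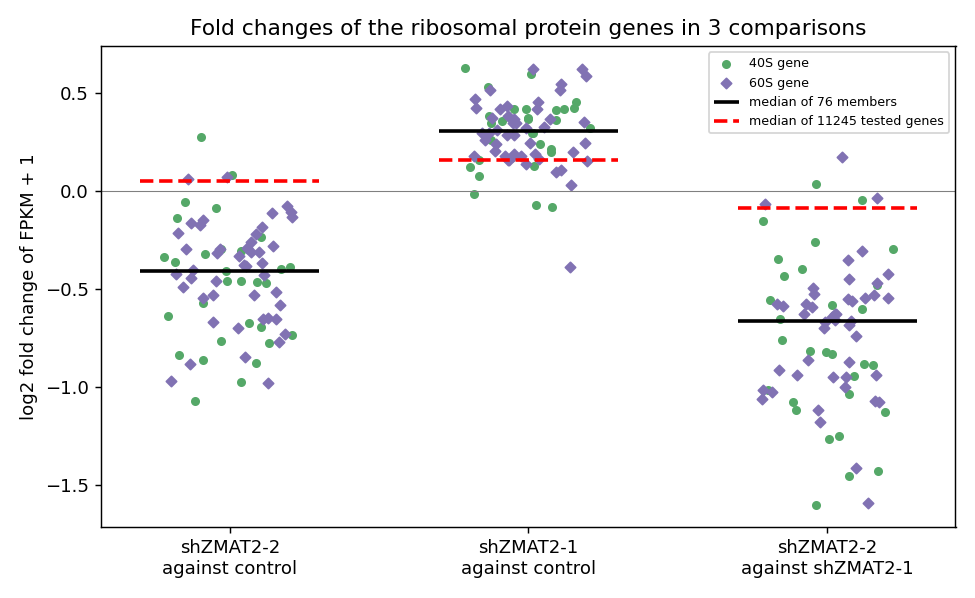
Log2 fold change of FPKM + 1 for the 76 tested ribosomal protein genes in 3 comparisons, with 40S and 60S genes marked. Solid lines are the median of the members (-0.41, 0.30 and -0.67) and dashed lines the median of 11245 tested genes (0.05, 0.16 and -0.09); no member passed the adjusted threshold.

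The estimates are also given by subunit, with no test of the difference between subunits. In shZMAT2-2 against the control the median log2 fold change was -0.46 over 30 small-subunit genes and -0.38 over 46 large-subunit genes. In shZMAT2-1 against the control it was 0.33 and 0.29, and in shZMAT2-2 against shZMAT2-1 it was -0.82 and -0.65. The summed FPKM of large-subunit genes was 1.39, 1.51 and 1.48 times that of small-subunit genes in shZMAT2-2, 1.41, 1.47 and 1.41 times in shZMAT2-1, and 1.44, 1.30 and 1.45 times in the control.

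Without control replicate 2 and shZMAT2-1 replicate 2, a fit chosen after the data were seen, 66 of 76 members were called lower in shZMAT2-2 than in the control, against 23.8% of 11111 tested genes called lower. In shZMAT2-2 against shZMAT2-1 the count was 69 of 76, against 29.5% of tested genes. In shZMAT2-1 against the control it was 0, against 1.15% of tested genes. There 66 of 76 members had an estimate above 0, with a median of 0.16, as did 48.7% of tested genes. RPS12 then had a log2 fold change of -1.89 in shZMAT2-2 against the control (limma adjusted p = 0.000361) and RPLP1 of -1.78 (limma adjusted p = 0.00029). The 2 libraries left out were those in which the members were low for their group. The control library lay below the mean of replicates 1 and 3 in 75 of 77 members, and the shZMAT2-1 library in 74. Leaving them out favours such calls, so these counts and p-values add no support. The 3 shZMAT2-2 libraries had mitochondrial shares of 14.5% to 27.0%, and the 4 shZMAT2-1 and control libraries that remain had 7.70% to 8.28%, so the hairpin and the mitochondrial share cannot be told apart in that fit. With all 9 libraries and the mitochondrial level as a covariate, no member was called in any comparison, against 9.84%, 3.73% and 0% of all tested genes, and the medians were -0.20, -0.0112 and -0.17 for shZMAT2-2 against the control, shZMAT2-1 against the control and shZMAT2-2 against shZMAT2-1.

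Genes outside the name rule that also supply ribosomal proteins followed the members. FAU encodes RPS30 fused to a ubiquitin-like protein, and RACK1 is a scaffold on the small subunit. FAU had 25.9, 34.6 and 44.7 FPKM in shZMAT2-2, 109, 33.7 and 92.1 FPKM in shZMAT2-1, and 73.9, 22.8 and 70.7 FPKM in the control. RACK1 had 86.3, 139 and 164 FPKM in shZMAT2-2, 260, 142 and 240 FPKM in shZMAT2-1, and 221, 62.1 and 227 FPKM in the control. Neither passed in any comparison, and both were lowest in control replicate 2.

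Paralogs differed in how they compared with their member. RPL36AL had 78.5 to 125 FPKM over the 9 libraries and was 58.6 to 125 times the listed level of RPL36A in each of them. RPL36A, like RPL26 and RPL22, shares exon bases with another gene, so the listed levels of these members and their comparison with paralogs are uncertain. RPL26L1 had 14.4 to 39.8 FPKM and exceeded RPL26 in 8 of 9 libraries, the exception being control replicate 2. RPL22L1 lay at 0.616 to 1.07 times RPL22, whereas RPL39L, RPL7L1 and RPS27L stayed below RPL39, RPL7 and RPS27 in all 9 libraries. RPL3L and RPL10L stayed at or under 1.02 FPKM and were not tested. Of the 8 paralogs 6 were tested, and none passed in any comparison.

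Translation factors whose mRNAs carry the TOP motif did not all follow the members. Of 18 listed genes 17 were in the table, all 17 were tested and none passed; EEF1G was not analysed here. In shZMAT2-2 against the control 8 had a higher and 9 a lower estimate, with a median log2 fold change of -0.09. The elongation factor EEF1A1 had 350, 531 and 539 FPKM in shZMAT2-2, 870, 508 and 821 FPKM in shZMAT2-1, and 950, 249 and 906 FPKM in the control. Its 4 highest libraries were those highest in most members. Within them, however, both control libraries lay above both shZMAT2-1 libraries, as in 5 of 77 members, while 51 members had the opposite order. PABPC1, the poly(A)-binding protein, had 166, 156 and 152 FPKM in shZMAT2-2, 82.7, 141 and 88.9 FPKM in shZMAT2-1, and 104, 120 and 105 FPKM in the control, so that its 4 lowest libraries were those highest in most members. EIF3D, a subunit of the initiation factor eIF3, had 78.8, 75.5 and 85.8 FPKM in shZMAT2-2, 78.8, 82.3 and 74.6 FPKM in shZMAT2-1, and 62.6, 55.6 and 63.2 FPKM in the control, and both hairpin groups lay above the control. Against the control it had a log2 fold change of 0.40 for shZMAT2-2, with an adjusted p of 0.747 in limma, and of 0.37 for shZMAT2-1, with an adjusted p of 0.805 in limma.

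Regulators of the family were read from the same fit. Of 14 genes for TOP mRNA control and mTORC1 signalling none passed in any comparison, with a median log2 fold change of 0.13 in shZMAT2-2 and 0.16 in shZMAT2-1 against the control. LARP1 had 38.3, 44.6 and 37.7 FPKM in shZMAT2-2, 36.9, 44.4 and 37.8 FPKM in shZMAT2-1, and 42.1, 30.4 and 39.9 FPKM in the control, a narrow range beside that of the members. MYC, a transcription factor that raises ribosome production, had 10.7, 12.8 and 12.6 FPKM in shZMAT2-2, 10.8, 13.2 and 11.1 FPKM in shZMAT2-1, and 8.99, 7.37 and 9.39 FPKM in the control. Both hairpin groups lay above the control for MYC, with a log2 fold change of 0.45 for shZMAT2-2 and an adjusted p of 0.604 in limma. For shZMAT2-1 the values were 0.41 and 0.805 in the same fit.

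Of 11 genes for the chaperones that escort newly made ribosomal proteins and for the MDM2 checkpoint, none passed in any comparison. PDCD2L, a binding partner of the small-subunit protein RPS2, had 2.16, 2.77 and 2.92 FPKM in shZMAT2-2, 6.59, 4.16 and 5.98 FPKM in shZMAT2-1, and 4.85, 2.01 and 5.65 FPKM in the control. In shZMAT2-2 against shZMAT2-1 its log2 fold change was -0.85 (limma adjusted p = 0.657) and the groups did not overlap. The 13 mitochondrially encoded genes had a median log2 fold change of 0.46 in shZMAT2-2 and -0.48 in shZMAT2-1 against the control, opposite in sign to the members in both. FPKM divides by a depth that these genes share with the members, so opposite signs may be partly built into the unit. None of the 13 passed, with smallest limma adjusted p-values of 0.9995 and 0.805. These genes took 43.2% of the fragments in control replicate 2, against 7.86% and 8.28% in control replicates 1 and 3. These are bulk samples, in which fewer cells of a kind and less RNA per cell cannot be told apart.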

How the data were processed

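Poly(A) RNA of 9 Huh7 libraries was sequenced with a strand-specific kit, per the labels' protocols. The deposited values are FPKM per gene, made by the authors. The submitters' processing notes name HISAT, featureCounts and DESeq2, with no version. The sources used here do not give the genome build. Names and exons were taken from GENCODE 29, which holds 25089 of the 27421 gene IDs, and start sites from RefSeq (GRCh38.p14).

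Depth was recovered from single-exon genes, whose FPKM were whole multiples of 1 fragment within 0.1 fragments. Floors from it cover counting error only. All 9 libraries entered 1 limma-trend fit (limma 3.58.1, R 4.3.3) of log2(FPKM + 1), over the genes that reached 1 FPKM in 3 or more libraries. This scale understates the change of low genes. Tests were two-sided, with a Benjamini-Hochberg adjusted p under 0.05. The procedure was tested on simulated data in which each gene and library varied independently, so shifts of whole libraries were not covered. Python 3.11.15, pandas 2.3.3 and numpy 2.4.6 did the rest. The members and lists were chosen with earlier results of these data known. Named genes were the 4 members of smallest p per comparison, RPS12, RPLP1 and RPL26, the highest and lowest levels, the extremes of each replicate ratio, and up to 3 genes per list; others were named after their values were seen, and a few genes the rule selects are not reported here.

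The labels do not state that replicate numbers pair libraries. Across tested genes, same-numbered libraries of shZMAT2-1 and the control deviated together from their group means (correlations of 0.61, 0.78 and 0.69). These values are not independent, since deviations within a group cancel and both second libraries stand apart from their groups. A pairing therefore cannot be read from them. Alternatives were another pseudocount, filters, scalings, a replicate block, fits on the compared groups alone, leaving out each library, a mitochondrial covariate and leaving out 2 libraries together.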

Additional observations from a re-analysis of the deposited data

How the results depend on the processing

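No member was called in any comparison with a pseudocount of 0.1, no filter, a filter of 5 FPKM, TPM, median-of-ratios or nuclear scaling, only the groups compared, or any single library left out. In those fits 0% (in every comparison with TPM or only the groups compared) to 2.35% (shZMAT2-2 against the control without control replicate 2) of all tested genes were called, and 1.78% in that comparison with median-of-ratios. Leaving out each library in turn gave member medians of -0.91 to -0.16 for shZMAT2-2 against the control, -0.19 to 0.66 for shZMAT2-1 against the control and -1.01 to -0.49 for shZMAT2-2 against shZMAT2-1. The count of members called was 0 throughout. The smallest adjusted p in limma was 0.0713, in shZMAT2-2 against the control without control replicate 2. By the unadjusted limma test 61 of 76 members were under 0.05 there, as were 3300 of 11206 tested genes. In shZMAT2-2 against shZMAT2-1 the same fit gave 52 members and 2650 tested genes. The value of -0.19 came without control replicate 2, and with the mitochondrial covariate that median was -0.0112. Without control replicate 2 and shZMAT2-1 replicate 2 together, an alternative chosen after the data were seen, 66 members were called in shZMAT2-2 against the control and 69 in shZMAT2-2 against shZMAT2-1. Most members were low for their group in these 2 libraries, so leaving them out favours such calls. The cause was not tested.

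Single genes changed sign as follows. In shZMAT2-1 against the control, leaving out each library gave -0.29 to 1.27 for RPS12 and -0.19 to 1.37 for RPLP1, both lowest without control replicate 2. RPS12 had -0.0093 with the covariate, and RPS26 had -0.0063 with nuclear scaling. In shZMAT2-2 against the control RPL26 ranged over -0.36 to 0.0445, the last without control replicate 2, alone or with the second shZMAT2-1 library. In shZMAT2-2 against shZMAT2-1 it had -0.0319 with TPM and -0.06 with the covariate.

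With the replicate block 0 members were called in each comparison and all 3 medians were the same; 13, 52 and 0 of 11245 tested genes were called in shZMAT2-1 against the control, shZMAT2-2 against the control and shZMAT2-2 against shZMAT2-1. An unadjusted p under 0.05 was found for 10 members and 730 tested genes in shZMAT2-2 against the control, and for 34 members and 1086 tested genes in shZMAT2-2 against shZMAT2-1. For shZMAT2-2 the same-numbered libraries had correlations of -0.76, -0.22 and 0.61 with the control and -0.63, 0.18 and 0.63 with shZMAT2-1. The labels state no pairing for any group.

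Scaling moved the median of all tested genes. In shZMAT2-1 against the control it moved by 0.14 with TPM, by -0.15 with median-of-ratios and by -0.19 with nuclear scaling, and the members' median minus that of all genes was 0.22, 0.10 and 0.09. In shZMAT2-2 against shZMAT2-1 it moved by -0.18 with TPM and by 0.20 with nuclear scaling, and the members' median minus that of all genes was -0.62 and -0.53. A level of 3 fragments on a 1 kb transcript, 0.126 to 0.163 FPKM, lies below the level of every member except RPS10 in all 9 libraries.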
